A study of Mus musculus with 35 samples.

Results

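RNA of 10 innate immune receptor genes was followed in mouse skin wounds in which Col5a1 was targeted in fibroblasts. Of these genes 4 encode toll-like receptors (Tlr1, Tlr2, Tlr4 and Tlr13), 1 the co-receptor Cd14, 1 the adaptor Myd88, and 4 C-type lectin receptors (Clec4d, Clec4e, Clec7a and Clec4n). They were taken by gene symbol from count tables that each held 22830 symbols. The genes were chosen with earlier results of these data known, so their counts set beside all genes are descriptions. All 10 were present and passed the filter on low counts in each comparison.

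Sensing of microbes and damaged cells in skin is carried largely by leukocytes that enter or reside in the dermis. Toll-like receptors bind microbial products and released cell contents. TLR2 pairs with TLR1 to bind triacylated lipopeptides, TLR4 binds lipopolysaccharide delivered by CD14, and TLR13 in endosomes binds a stretch of bacterial ribosomal RNA. MyD88 is the adaptor that most toll-like receptors share and that leads to NF-kB and cytokine genes. The C-type lectins Dectin-1 (Clec7a), Dectin-2 (Clec4n), Mincle (Clec4e) and MCL (Clec4d) bind fungal glucans, mannans and mycobacterial glycolipids, and Mincle also binds material from dead cells. Dectin-1 carries its own tyrosine motif, while Dectin-2 and Mincle signal through the Fc receptor gamma chain, and all reach the kinase Syk. The lectins are best known from monocytes, macrophages, dendritic cells and neutrophils.

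The 35 libraries came from full-thickness excisional wounds of dorsal mouse skin. Col5a1CKO animals carried Col1a2CreERT and Col5a1 fl/fl, in which a tamoxifen-inducible Cre under a pro alpha 2(I) collagen enhancer acts in fibroblasts, and WT animals were Cre-negative Col5a1 fl/fl littermates. Tamoxifen was given to both genotypes. At day 14 after wounding there were 7 WT wounds, 7 Col5a1CKO wounds and 3 Col5a1CKO wounds into whose bed cultured WT fibroblasts had been injected. Day 19 was represented by 3 wounds of each genotype. A separate experiment, deposited in its own table, held 4 WT and 4 Col5a1CKO wounds given PBS vehicle and 4 Col5a1CKO wounds given cilengitide, an integrin inhibitor, by daily injection and taken at day 14. The fibroblasts came from cultures that had been passaged, and per the study's methods mice that received none were given PBS, which the labels of the first experiment do not name. The titles were followed where they went against the treatment label. That label named WT fibroblasts for the 3 Col5a1CKO day 19 samples and only wounding for the 3 samples titled as fibroblast-injected. Each value of the injected wounds and of the Col5a1CKO day 19 wounds thus rests on the titles. RNA was from bulk wound tissue, so fewer cells of a type and less RNA per cell cannot be told apart. The labels do not say whether each library was a separate animal, while the study's methods describe every n as separate biological replicates. The p-values measure the spread between these libraries.

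The genes of the C-type lectins lay close together. On NCBI37 (mm9) Clec4n (chromosome 6, 123179861 to 123197039, plus strand), Clec4d (chromosome 6, 123212125 to 123225286, plus strand) and Clec4e (chromosome 6, 123231807 to 123239889, minus strand) followed one another, and Clec7a (chromosome 6, 129411611 to 129422790, minus strand) lay further along the same chromosome. Tlr1 was on chromosome 5 (65316050 to 65324000, minus strand), Tlr2 on chromosome 3 (83640195 to 83645689, minus strand), Tlr4 on chromosome 4 (66488618 to 66591318, plus strand), Tlr13 on chromosome X (103338543 to 103355832, plus strand) and Myd88 on chromosome 9 (119245052 to 119250529, minus strand).

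The 250 bases upstream of the start site are shown for the pair of lectin genes that differed most between the genotypes in the vehicle experiment (Clec4d and Clec4e), for the lectin gene Clec7a and for Tlr2, which were called in both vehicle comparisons, and for Myd88, which differed least. The sequences are from RefSeq on build GRCm38.p6 and are in gene orientation, 5′ to 3′. Clec4d is at chr6:123261857-123262106 on the plus strand, Clec4e at chr6:123289872-123290121 on the minus strand and Clec7a at chr6:129472780-129473029 on the minus strand. Tlr2 is at chr3:83841609-83841858 and Myd88 at chr9:119340019-119340268, both on the minus strand. Capitals mark GAGGAA, the core of PU.1-type sites, or its reverse complement. In Clec4e they also mark the reverse complement of TTGCNNAA, a C/EBP-type form.
Clec4d: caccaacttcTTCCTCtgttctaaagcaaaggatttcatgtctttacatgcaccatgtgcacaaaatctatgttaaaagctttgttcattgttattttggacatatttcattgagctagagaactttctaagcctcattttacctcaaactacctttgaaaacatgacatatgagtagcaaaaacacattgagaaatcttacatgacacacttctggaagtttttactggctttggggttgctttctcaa
Clec4e: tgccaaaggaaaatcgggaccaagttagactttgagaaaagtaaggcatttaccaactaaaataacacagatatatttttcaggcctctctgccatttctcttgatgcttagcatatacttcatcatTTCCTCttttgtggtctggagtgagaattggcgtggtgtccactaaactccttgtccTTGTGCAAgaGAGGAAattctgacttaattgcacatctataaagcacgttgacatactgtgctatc
Clec7a: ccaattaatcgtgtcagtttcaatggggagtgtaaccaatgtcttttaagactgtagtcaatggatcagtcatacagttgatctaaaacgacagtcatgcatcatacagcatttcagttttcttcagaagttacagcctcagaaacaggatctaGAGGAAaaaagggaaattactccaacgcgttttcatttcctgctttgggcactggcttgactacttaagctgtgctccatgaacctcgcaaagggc
Tlr2: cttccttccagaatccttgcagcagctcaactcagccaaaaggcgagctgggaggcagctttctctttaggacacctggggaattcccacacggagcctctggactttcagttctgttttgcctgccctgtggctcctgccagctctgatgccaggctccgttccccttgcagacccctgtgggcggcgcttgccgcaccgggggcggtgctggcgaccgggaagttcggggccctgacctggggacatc
Myd88: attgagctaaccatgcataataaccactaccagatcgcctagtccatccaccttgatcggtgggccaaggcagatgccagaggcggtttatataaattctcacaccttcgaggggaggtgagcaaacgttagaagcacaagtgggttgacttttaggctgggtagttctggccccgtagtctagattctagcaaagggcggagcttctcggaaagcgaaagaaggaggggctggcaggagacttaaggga

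GAGGAA, sought on both strands, was present upstream of a start site in 5 of the 7 receptor genes with a promoter in the table used. These were Tlr1, Tlr13, Clec4d, Clec4e and Clec7a. Of all 32851 promoters of this length, each counted singly, 23.3% held it. Tlr1 and Clec7a had 2 start sites each, so these shares differ in unit, and start site 2 of Tlr1 lacked GAGGAA. Clec4e held it at 2 places, from 123 to 118 and from 56 to 51 bases before the start, and Clec7a from 96 to 91 bases before its start. TTGCNNAA, also sought on both strands, was found for Clec4e alone, where 9.56% of all promoters held it. It lay from 66 to 59 bases before the start, as its reverse complement. The AP-1 form TGANTCA (6.75% of all promoters) and the NF-kB form GGG, any 2 bases, TTTCC (1.41%) were found in 0 of the 7. These motifs do not overlap one another in the sequences shown, and a match describes the letters only. Other forms of AP-1 and NF-kB sites were not sought, so their absence from these promoters is not shown. Promoters of Tlr4, Clec4n and Cd14 were not analysed here.

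The wounds held 15043531 to 35700325 counts per library over the kept gene rows of the first table, and between 51211600 and 68266760 in the cilengitide table. Levels are given as CPM, counts scaled to a common library total, after TMM scaling. By how much their GC-rich genes exceeded their GC-poor ones, libraries of the first table fell into a lower and an upper set, 1.54 apart on the log2 scale (the next widest gap was 0.39). The lower set held 4 WT wounds (a, b, c, d) and 5 Col5a1CKO wounds (a, b, c, d, e) of day 14, and all others were in the upper set, so the day 14 values are also given within sets. Within the upper set at day 14 the 3 WT wounds held Y-linked RNA and the 2 Col5a1CKO wounds and all fibroblast-injected wounds held Xist RNA, so genotype and sex cannot be told apart there. Xist was at 135 to 186 CPM in WT vehicle replicates 1 and 3 and cilengitide replicates 2 and 3, and at most 1.27 CPM in the 4 Col5a1CKO vehicle wounds. Y-linked RNA summed to 224 to 322 CPM in Col5a1CKO vehicle replicates 1, 3 and 4 and to 0 CPM in replicate 2, which thus held neither.

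Col5a1, the targeted gene, was lower on average in Col5a1CKO wounds but overlapped with WT in each comparison over all wounds. It ranged from 347 to 2386 CPM in WT wounds, and in Col5a1CKO wounds from 170.0 to 663 CPM at day 14 (log2 fold change -1.43, SE 0.49, adjusted p = 0.0757). Within the lower set it did not overlap, at 846 to 2386 CPM in WT against 170.0 to 663 CPM in Col5a1CKO wounds (log2 fold change -1.87, adjusted p = 0.0273), and within the upper set it did, at 347 to 379.5 against 231 to 352 CPM (log2 fold change -0.23, adjusted p = 0.524). At day 19 the ranges were 515 to 5425 and 617 to 1092 CPM (log2 fold change -1.69, SE 0.87, adjusted p = 0.272). In the vehicle groups they were 449 to 2657 and 252 to 1319 CPM (log2 fold change -1.17, SE 0.76, adjusted p = 0.232). Over all wounds none passed the test by edgeR's quasi-likelihood fit with Benjamini-Hochberg adjustment, which gave all adjusted p-values below unless another is named. A gene was called when its adjusted p was under 0.05 and it differed at least 2-fold.

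Per kilobase of transcript, Clec4n and Clec4d had the highest median of the 10 genes over all day 14 wounds of each genotype and Tlr1 the lowest, an order that held in the lower library set and not in the upper. In WT wounds the median levels were 114 CPM per kb for Clec4n, 63.4 for Clec4d, 37.9 for Clec7a, 31.3 for Myd88 and 17.4 for Cd14. Tlr13 (6.60), Tlr4 (6.25), Clec4e (5.16) and Tlr2 (4.69 CPM per kb) followed, and Tlr1 was lowest at 1.47. Col5a1CKO wounds had another order, with Clec4d first at 338 CPM per kb, then Clec4n (179), Cd14 (175) and Clec4e (147). Clec7a (41.9), Myd88 (39.9) and Tlr2 (39.6) lay close together, above Tlr13 (20.6), Tlr4 (14.4) and Tlr1 (8.19 CPM per kb). The ranges of neighbours in these orders overlapped, and the spread in WT reached 171-fold for Clec4e and 52.8-fold for Cd14 from the lowest to the highest wound. In the lower set Clec4d and Clec4n led in both genotypes, at 247 and 162 CPM per kb in WT. In the upper set Myd88 led in WT wounds at 43.7 CPM per kb, above Clec4n at 15.2 and Clec4d at 6.44, and Tlr4 was lowest at 1.07. Cd14 led in the Col5a1CKO wounds of that set, at 399 CPM per kb against 213 for Clec4d.

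The day 14 comparison addressed how loss of Col5a1 in fibroblasts changed the wound. Tlr1 and Tlr2, whose products form a lipopeptide receptor, were higher in Col5a1CKO wounds by 3.43-fold and 5.13-fold. These were the 2 of 10 receptor genes called, and 5.57% of the 14367 genes tested were called higher. The other 8 had fold changes above 0 on the log2 scale but did not pass. Over the 10 genes the median log2 fold change was 1.43, against -0.03 over all genes tested, and 4 of 10 had an unadjusted p under 0.05 (14.2% of all genes, higher). In 0 of 10 were the groups free of overlap (2.31% of all genes had every Col5a1CKO wound above every WT wound).

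Among the toll-like receptors, Tlr2 had its lowest, median and highest WT values at 10.1, 13.4 and 56.1 CPM and its Col5a1CKO values at 44.8, 113 and 259 CPM (log2 fold change 2.36, SE 0.54, adjusted p = 0.0147). The 3 WT wounds of the upper set and WT replicate b were lowest, and only WT replicates c and d reached into the Col5a1CKO range, above Col5a1CKO replicate e. Tlr1 was at 2.22, 3.78 and 13.2 CPM in WT against 12.4, 21.0 and 43.4 CPM in Col5a1CKO wounds (log2 fold change 1.78, SE 0.48, adjusted p = 0.0287). WT replicates a and c overlapped with the lowest Col5a1CKO wound alone, replicate e at 12.4 CPM. Tlr4, the lipopolysaccharide receptor, ran from 3.98 to 52.6 CPM in WT wounds, and in Col5a1CKO wounds from 16.9 to 113 CPM (log2 fold change 1.31, SE 0.62, adjusted p = 0.186). Tlr13, the sensor of bacterial ribosomal RNA, ran from 7.28 to 67.4 and from 33.7 to 229.6 CPM (log2 fold change 1.53, SE 0.59, adjusted p = 0.111). For both genes the WT wounds of the upper set lay below all Col5a1CKO wounds, and those of the lower set lay among them, except for Tlr13 in WT replicate a at 26.5 CPM.

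Cd14 and the lectin genes Clec4d and Clec4e varied most between wounds. Cd14, which hands lipopolysaccharide to TLR4, was at 8.24, 26.1 and 435 CPM (lowest, median, highest) in WT and 112, 262 and 1078 CPM in Col5a1CKO wounds (log2 fold change 1.89, SE 0.93, adjusted p = 0.202). Clec4e was at 1.88, 13.0 and 322 CPM in WT against 93.6, 371 and 1088 CPM in Col5a1CKO wounds (log2 fold change 2.57, SE 1.11, adjusted p = 0.15). Clec4d was at 5.78, 84.7 and 807 CPM in WT against 117, 451 and 1508 CPM in Col5a1CKO wounds (log2 fold change 1.34, SE 0.94, adjusted p = 0.376). WT replicates c and d stood apart from the other WT wounds in all 3 genes, with 435 and 379 CPM of Cd14 where the other 5 held at most 63.5 CPM. They were also the WT day 14 wounds with Xist RNA (919 and 646 CPM, at most 0.722 in the other 5, which held Y-linked RNA), and the part of sex in these values was not tested. Myd88, the shared adaptor, ran from 28.7 to 85.4 CPM in WT wounds, and in Col5a1CKO wounds from 33.2 to 122 CPM (log2 fold change 0.32, SE 0.32, adjusted p = 0.547).

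Dectin genes showed a similar overlap. Clec7a ran from 14.4 to 194 CPM in WT wounds, and in Col5a1CKO wounds from 73.0 to 587 CPM (log2 fold change 1.27, SE 0.66, adjusted p = 0.229), with Col5a1CKO replicate a above all others at 587 CPM. Clec4n ran from 17.8 to 233 and from 131 to 507 CPM (log2 fold change 1.20, SE 0.60, adjusted p = 0.208). The lowest WT values of both genes were those of the upper set, at 14.4 to 22.0 CPM for Clec7a and 17.8 to 22.5 CPM for Clec4n.

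**Figure D1:**
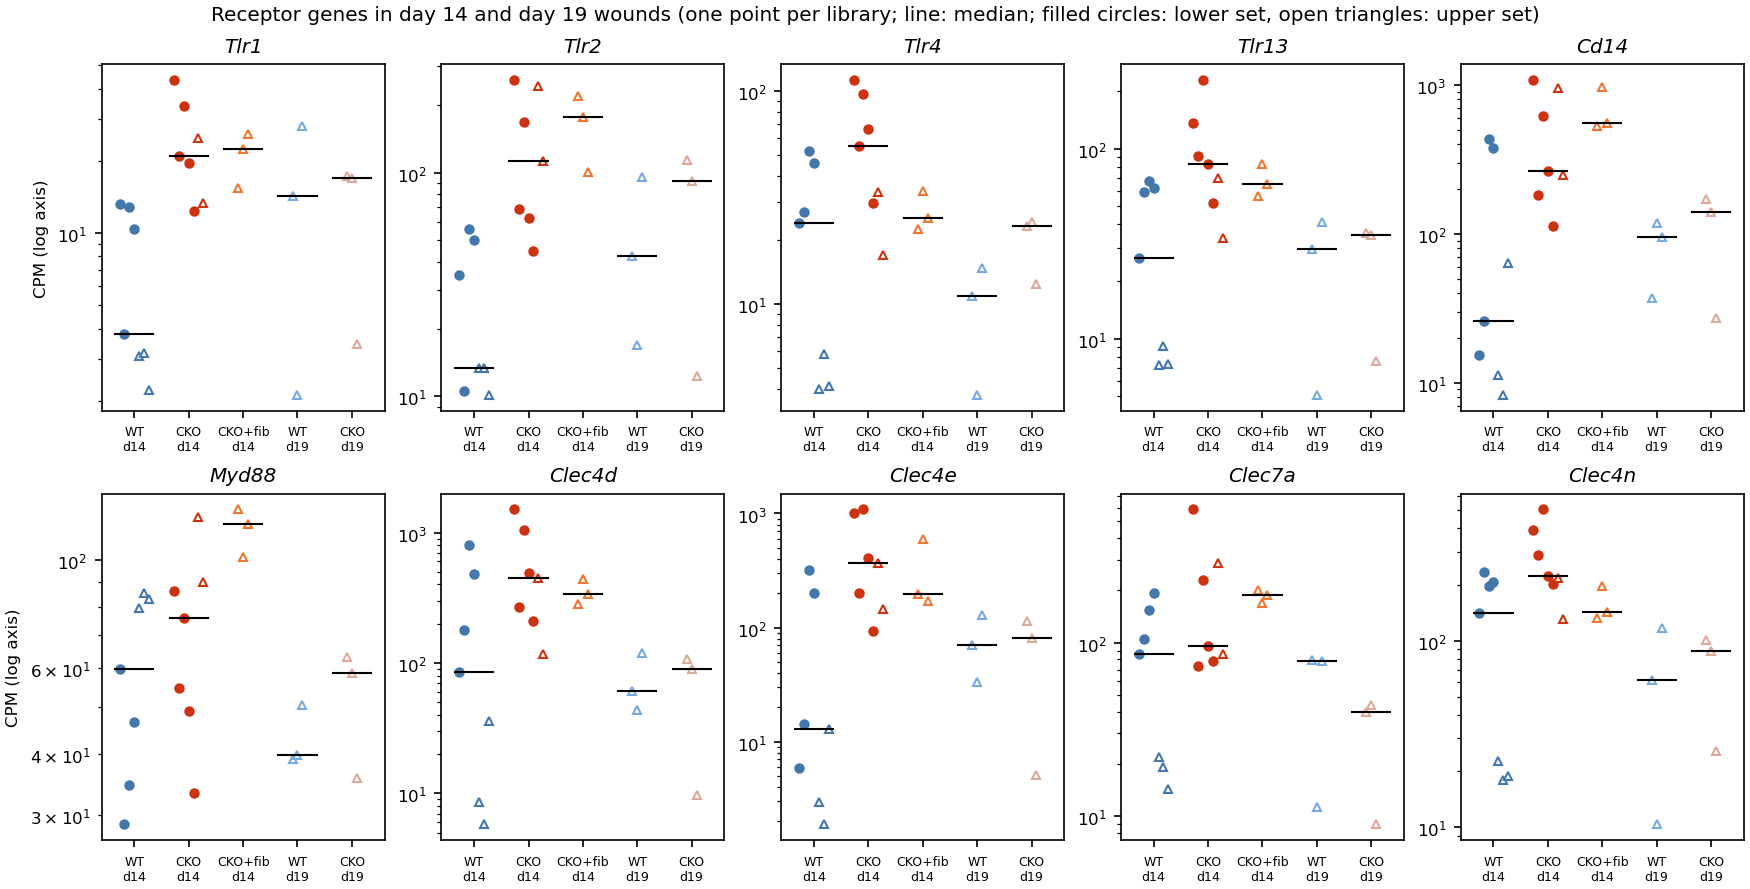
CPM (log axis) of the 10 receptor genes in the 5 groups of the first table, 1 panel per gene, with a point per library and a line at the group median. Filled circles are libraries of the lower set and open triangles those of the upper set. The WT day 14 triangles lie below the WT circles for Tlr1, Tlr4, Tlr13, Clec4d, Clec7a and Clec4n, and above them for Myd88. Tlr4 is at 3.98 to 5.82 CPM in the triangles.

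The median day 14 difference was larger in the upper than in the lower library set, and the difference between sets was not tested. Among the 4 WT and 5 Col5a1CKO wounds of the lower set, 0 of 10 receptor genes were called (5 at an unadjusted p under 0.05, while 3.68% of genes were called higher), and the median log2 fold change was 1.01. Single genes were at 1.36 for Tlr1 (adjusted p = 0.0903) and 1.67 for Tlr2 (adjusted p = 0.14). Among the 3 WT and 2 Col5a1CKO wounds of the upper set, 7 of 10 were called higher (8.82% of genes) with a median of 3.33, including 2.86 for Tlr1 (adjusted p = 0.0369), 3.96 for Tlr2 (adjusted p = 0.0369), 5.53 for Clec4e (adjusted p = 0.0493) and 3.44 for Clec7a (adjusted p = 0.0414). Cd14, Clec4d and Myd88 did not pass there, at 4.52 for Cd14 (adjusted p = 0.0765), 4.17 for Clec4d (adjusted p = 0.073) and 0.45 for Myd88 (adjusted p = 0.139). With the set as a covariate 6 of 10 were called (9.04% of genes). Leaving out WT replicate e or f, or Col5a1CKO replicate a, c or f, left 1 gene called.

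Leukocyte RNA moved with the receptors. Ptprc, which encodes CD45 on all leukocytes, ran from 29.2 to 125 CPM in WT wounds, and in Col5a1CKO wounds from 141 to 768 CPM (log2 fold change 2.14, SE 0.45, adjusted p = 0.0104), and Itgam, which encodes CD11b of myeloid cells, had a log2 fold change of 2.55 (SE 0.43, adjusted p = 0.00515). The summed level of 10 neutrophil markers was 1219 to 9031 CPM in WT wounds, with Ltf under 1 CPM in all of them, and 1915 to 21976 CPM in Col5a1CKO wounds, and 6 of 10 were called higher. Of 12 monocyte and macrophage markers 5 were called higher, with sums of 978 to 3595 and 2426 to 5319.8 CPM, where 5.57% of all genes were called higher. Keratinocyte markers summed to 32299.7 to 159715 CPM in WT against 34.9 to 61976 CPM in Col5a1CKO wounds, with 0 of 7 called. Within sets Ptprc was called in both (log2 fold change 1.87, adjusted p = 0.0355 in the lower and log2 fold change 2.62, adjusted p = 0.0421 in the upper), as was Itgam (log2 fold change 2.28, adjusted p = 0.0283 and log2 fold change 3.05, adjusted p = 0.0369). In the lower set 2 of 10 neutrophil and 2 of 12 monocyte and macrophage markers were called higher (3.68% of all genes), and in the upper set 4 of 10 and 8 of 12 (8.82%). Keratinocyte markers had 0 called in either set, with WT sums of 32299.7 to 35548 CPM in the lower and 106923 to 159715 CPM in the upper. The part of these cells in the receptor differences was not tested.

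**Figure D2:**
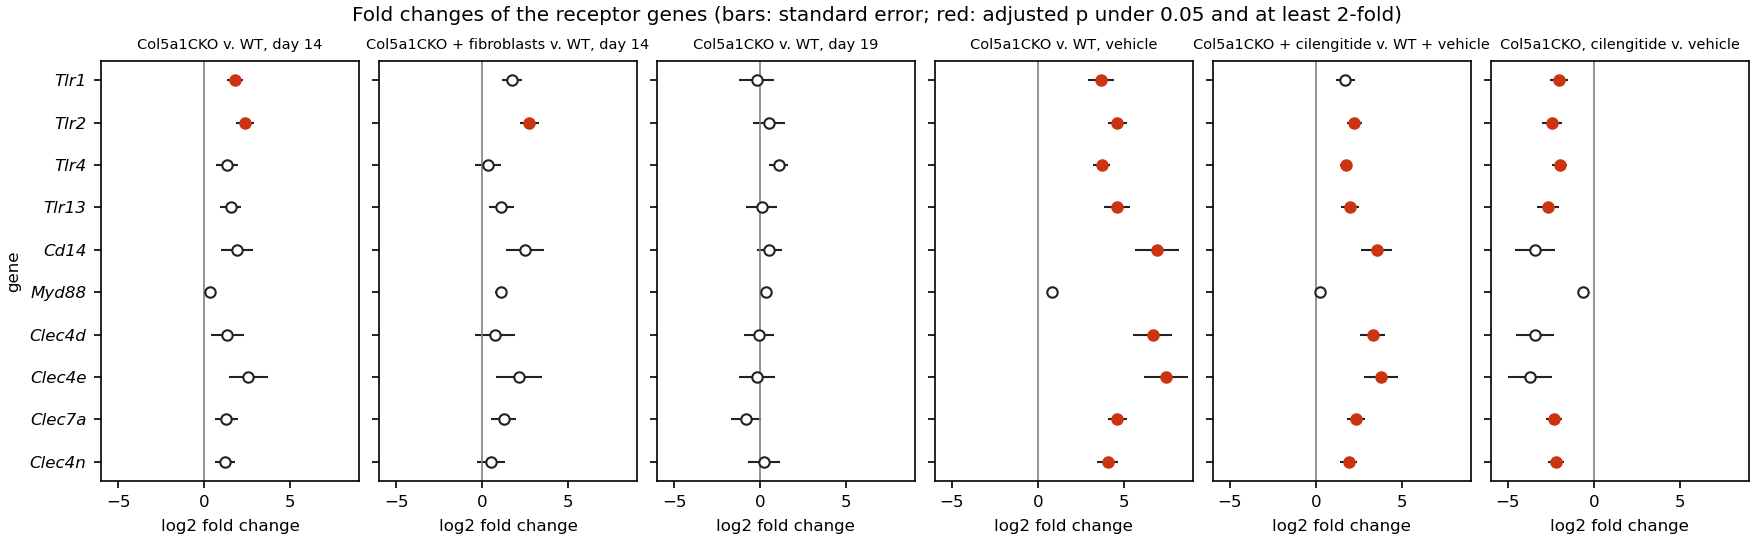
Log2 fold change with its standard error for each receptor gene in 6 comparisons, with red points for genes called at an adjusted p under 0.05 and at least 2-fold. Red points are 2 at day 14, 1 with fibroblasts against WT, 0 at day 19, 9 in the vehicle groups, 8 with cilengitide against WT vehicle and 6 with cilengitide against Col5a1CKO vehicle, the last on the negative side.

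Injection of WT fibroblasts was compared with Col5a1CKO wounds not given fibroblasts to see what added fibroblasts changed. No receptor gene passed the test: 0 of 10 were called by edgeR or DESeq2, with 0 of 10 at an unadjusted p under 0.05 in edgeR and 2 in DESeq2, and 0% of the 15659 genes tested were called in either direction. The median log2 fold change was -0.37. Tlr4 (-1.12, SE 0.54, adjusted p = 0.405) and Clec4n (-0.85, SE 0.40, adjusted p = 0.396) had their 3 injected wounds at 22.6, 34.1 and 25.4 CPM and 133, 197 and 142 CPM. All 3 injected wounds were in the upper set. The direction of the median turned with it, at 0.14 with the set as a covariate and 0.19 within the upper set, where 0 were called as well. Both fits rest on the same Col5a1CKO wounds of the upper set. Against the 2 Col5a1CKO wounds of that set the log2 fold changes included 0.44 for Tlr13 (adjusted p = 1).

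Against WT wounds at day 14, the injected wounds had higher Tlr2 by 6.71-fold, and Tlr2 was the 1 gene of 10 called (3.77% of 15317 genes were called higher). Its 3 injected wounds held 221, 177 and 101 CPM, all above the highest WT wound at 56.1 CPM (log2 fold change 2.75, SE 0.57, adjusted p = 0.0153). Tlr1, Cd14 and Myd88 also lay above all WT wounds, so 4 of 10 did not overlap, where 10% of genes did not. Cd14 held 529.9, 969 and 557 CPM (log2 fold change 2.48, SE 1.11, adjusted p = 0.215) and Myd88 127, 101 and 118 CPM (log2 fold change 1.09, SE 0.34, adjusted p = 0.0824). Tlr1 held 15.5, 22.4 and 25.8 CPM (log2 fold change 1.73, SE 0.61, adjusted p = 0.123). An unadjusted p under 0.05 was reached by 4 of 10 (11.2% of genes). The remaining 6 overlapped with WT, with log2 fold changes from 0.34 for Tlr4 to 2.12 for Clec4e.

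Within the upper set 9 of 10 were called (19.8% of genes), from 3.14 for Clec4n (adjusted p = 2.05e-04) to 5.89 for Clec4e (adjusted p = 0.00833), with 0.63 for Myd88 (adjusted p = 0.00836) under 2-fold. With the set as a covariate 9 were called too (10% of genes). All injected wounds are in the upper set, so this fit rests on the same WT wounds and is not separate evidence. Among these wounds sex and group cannot be told apart. Without injected replicate a or b, 0 of 10 were called over both sets, where 1.63% and 1.72% of genes were called higher. These comparisons share WT wounds with the day 14 genotype comparison and are set beside it, not counted as separate evidence. Neutrophil markers summed to 8866 to 10606 CPM in the injected wounds, which overlapped with the 1219 to 9031 CPM of WT wounds. Pan-leukocyte markers summed to 1768 to 2039 CPM in injected and 231 to 745 CPM in WT wounds, without overlap. Their part in these values was not tested.

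At day 19 no receptor gene passed the test between the genotypes, with the Col5a1CKO wounds taken as not injected by their titles. By edgeR 0 of 10 were called and 0 had an unadjusted p under 0.05, and 0.0198% of the 15135 genes tested were called higher and 0% lower. DESeq2 also called 0 of 10, while it called 4.43% of all genes higher and 4.89% lower. The median log2 fold change was 0.15, with 6 genes above 0. Each group had a wound low in most receptors. WT replicate b held 17.0 CPM of Tlr2 where replicates a and c held 42.5 and 95.3, and Col5a1CKO replicate c held 12.3 CPM where a and b held 113 and 91.8 (log2 fold change 0.53, SE 0.94, adjusted p = 0.742). Clec7a was at 79.2, 11.3 and 78.3 CPM in WT against 40.0, 43.8 and 8.96 CPM in Col5a1CKO wounds (log2 fold change -0.83, SE 0.89, adjusted p = 0.574). Clec4e was at 71.0, 33.1 and 129 CPM in WT against 114, 80.8 and 5.09 CPM in Col5a1CKO wounds (log2 fold change -0.17, SE 1.05, adjusted p = 0.932). The same wounds were lowest in Ptprc, at 18.2 and 27.7 CPM. Without WT replicate b the Clec4n value was -0.30 in place of 0.21, and in no such fit was a receptor gene called.

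The test of whether the genotype difference itself changed from day 14 to day 19 found 0 of 10 at an adjusted p under 0.05 and 0 at an unadjusted p under 0.05 (0% and 5.88% of 15954 genes). Its values were below 0 for 9 of 10 genes, with a median of -1.45 on the log2 scale and a widest value of -2.78 for Clec4e (SE 1.88, adjusted p = 0.973). Within the upper set, which holds all day 19 wounds, the median was -3.25 and 8 of 10 had an unadjusted p under 0.05 (19.6% of 15918 genes), with 0 past the adjusted threshold. DESeq2 gave 1 at an unadjusted p under 0.05. The Col5a1CKO day 19 wounds of this test were likewise taken as not injected by their titles.

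In the vehicle groups of the cilengitide experiment the receptors were far higher in Col5a1CKO wounds. Clec4e, Cd14 and Clec4d were higher by 172-fold, 121-fold and 101-fold, and Tlr2, Clec7a and Tlr13 by 24.5-fold, 24.2-fold and 24.1-fold. Of the 10 genes 9 were called (17.5% of 15434 genes were called higher), all 10 had an unadjusted p under 0.05 (28.4%), and all 10 had every Col5a1CKO wound above every WT wound (23.4% of genes). The median log2 fold change was 4.59, against 0.02 over all genes.

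Clec4e, which encodes Mincle, held 4.49, 13.1, 13.1 and 2.98 CPM in the 4 WT wounds and 419, 109.8, 2406 and 2959 CPM in the 4 Col5a1CKO wounds (log2 fold change 7.43, SE 1.28, adjusted p = 0.00313). Clec4d held 12.7, 26.5, 17.1 and 6.18 CPM in WT against 405, 174, 2483 and 3343 CPM in Col5a1CKO wounds (log2 fold change 6.65, SE 1.15, adjusted p = 0.00312). Cd14 held 8.70, 31.5, 19.5 and 4.89 CPM in WT against 667, 137, 3273 and 3893 CPM in Col5a1CKO wounds (log2 fold change 6.92, SE 1.28, adjusted p = 0.00403). In all 3 genes Col5a1CKO replicates 3 and 4 were high, replicate 1 lay between, and replicate 2 was lowest, still above each WT wound. Tlr2 held 11.0, 11.5, 12.0 and 4.93 CPM in WT against 181, 80.2, 336 and 383 CPM in Col5a1CKO wounds (log2 fold change 4.62, SE 0.57, adjusted p = 0.00106). Clec7a held 26.5, 16.3, 10.9 and 6.63 CPM in WT against 253, 202, 510.2 and 512 CPM in Col5a1CKO wounds (log2 fold change 4.60, SE 0.55, adjusted p = 0.00102). These genes differed less between the Col5a1CKO wounds, 4.77-fold for Tlr2 and 2.54-fold for Clec7a from lowest to highest, than Clec4e did at 26.9-fold.

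The other toll-like receptor genes and Clec4n were called as well. Tlr13 ran from 3.75 to 17.2 CPM in WT against 85.6 to 431 CPM in Col5a1CKO wounds (log2 fold change 4.59, SE 0.75, adjusted p = 0.00262), and Clec4n from 9.55 to 39.1 CPM against 192 to 581 CPM (log2 fold change 4.06, SE 0.60, adjusted p = 0.00182). Tlr4 was at 3.71 on the log2 scale (SE 0.50, adjusted p = 0.00138) and Tlr1 at 3.68 (SE 0.76, adjusted p = 0.00622). Tlr1 was the least abundant, at 4.99, 5.17, 1.29 and 0.982 CPM in WT wounds. Myd88 passed the test but stayed under 2-fold, with 57.5, 60.6, 59.4 and 43.0 CPM in WT against 80.4, 63.7, 120.4 and 129 CPM in Col5a1CKO wounds (log2 fold change 0.82, SE 0.24, adjusted p = 0.025, 1.76-fold). Leaving out any of the 8 wounds kept 9 genes called.

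**Figure D3:**
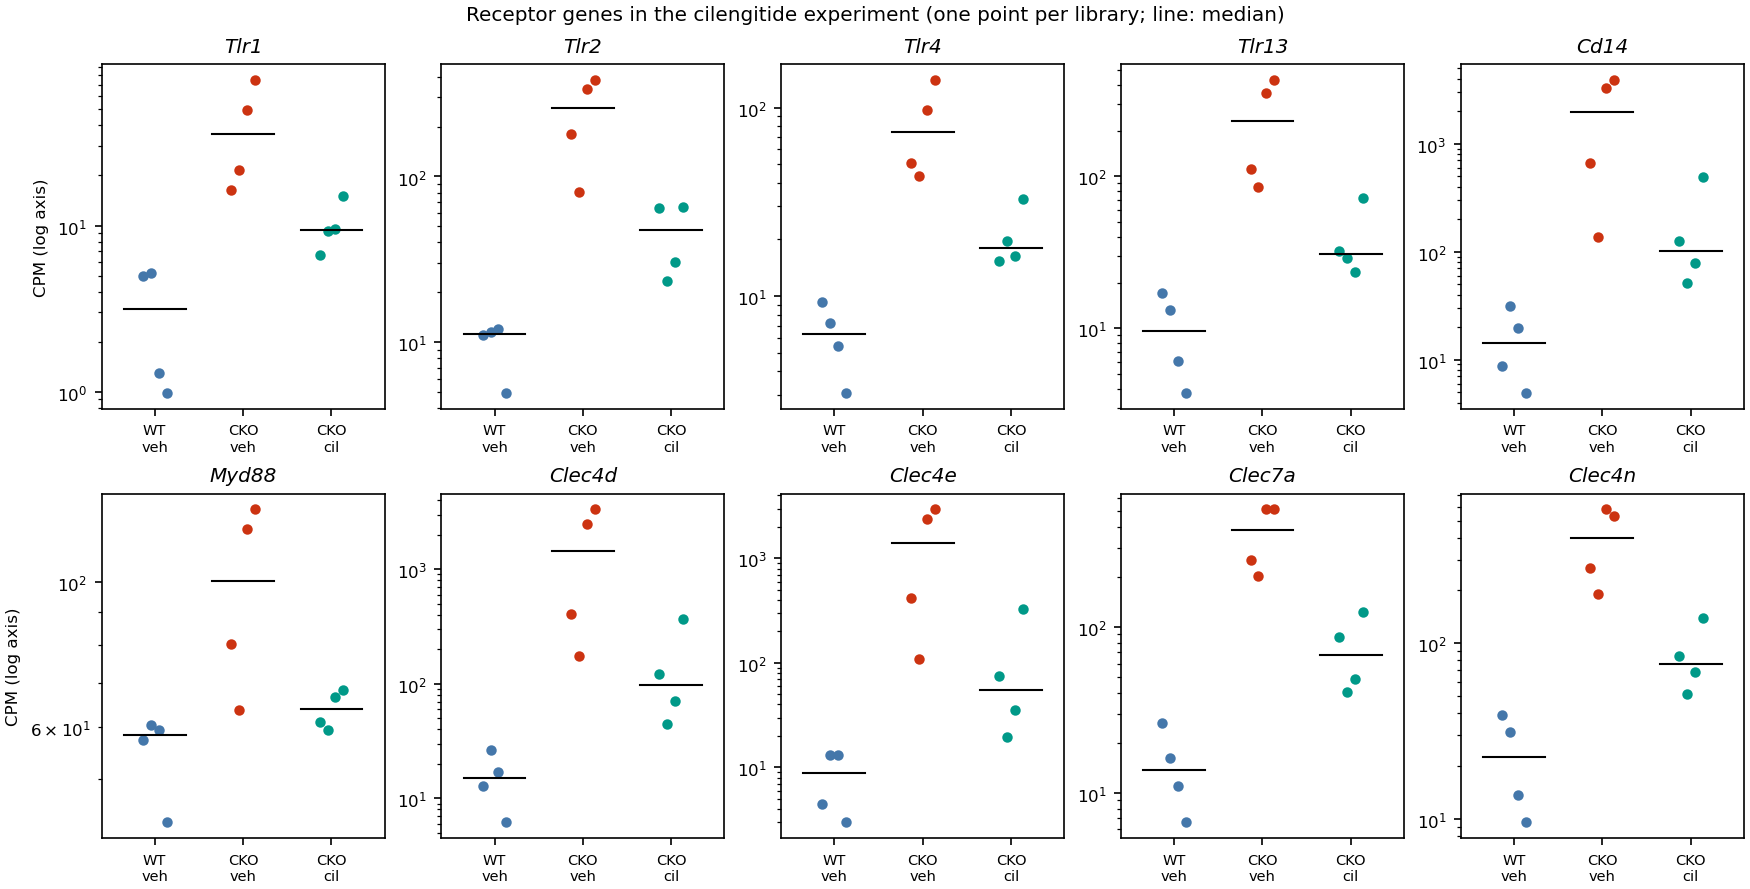
CPM (log axis) of the 10 receptor genes in WT vehicle, Col5a1CKO vehicle and Col5a1CKO cilengitide wounds, with a point per library and a line at the median. Each Col5a1CKO vehicle point lies above each WT vehicle point, and the cilengitide points lie between, free of overlap with either group, for 6 genes, as for Clec7a at 6.63 to 26.5, 202 to 512 and 40.5 to 123 CPM.

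Ptprc ran from 34.8 to 54.1 CPM in WT wounds, and in Col5a1CKO vehicle wounds from 267 to 990.3 CPM (log2 fold change 3.85, SE 0.48, adjusted p = 0.00107). Neutrophil markers summed to 111 to 2489.5 and 2032 to 45085 CPM, with 9 of 10 called higher and Camp under 1 CPM in all WT wounds. Monocyte and macrophage markers summed to 525 to 1521 and 3440.5 to 5268 CPM with 10 of 12 called higher, and keratinocyte markers to 63364 to 101374 and 63.8 to 12249.8 CPM with 4 of 7 called lower. Fibroblast markers had 2 of 6 called higher, where 17.5% of all genes were called higher and 13.4% lower in this comparison. The part of these cells in the receptor values, and that of the uneven Xist, was not tested.

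Cilengitide was compared with vehicle in Col5a1CKO wounds to ask what blocking integrins changed. The 4 toll-like receptor genes and the Dectin genes Clec7a and Clec4n were lower with cilengitide, from 3.99-fold for Tlr4 to 6.33-fold for Tlr13. These 6 of 10 were called lower (6.59% of 15563 genes), the same number had every cilengitide wound below every vehicle wound (12.7% of genes), and all 10 had an unadjusted p under 0.05 (21.2% of genes, lower). The median log2 fold change was -2.38, against -0.06 over all genes.

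Tlr2 held 64.8, 23.4, 30.4 and 65.6 CPM with cilengitide, against the vehicle values above (log2 fold change -2.43, SE 0.57, adjusted p = 0.0214). Tlr4 held 15.4, 19.7, 16.3 and 32.6 CPM with cilengitide and 50.8, 43.5, 97.2 and 140.1 CPM with vehicle (log2 fold change -1.997, SE 0.44, adjusted p = 0.0176). Clec7a held 86.6, 40.5, 48.1 and 123 CPM with cilengitide (log2 fold change -2.33, SE 0.47, adjusted p = 0.0142). Replicate 4 was the highest cilengitide wound in each and lay below the lowest vehicle wound. Clec4n held 84.3, 51.6, 68.4 and 139.9 CPM with cilengitide (log2 fold change -2.21, SE 0.46, adjusted p = 0.015). Tlr13 held 32.2, 29.2, 23.3 and 72.5 CPM (log2 fold change -2.66, SE 0.64, adjusted p = 0.0231), and Tlr1 6.64, 9.28, 9.51 and 15.2 CPM (log2 fold change -2.02, SE 0.52, adjusted p = 0.0284). None of these 6 overlapped with vehicle.

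Cd14, Clec4d and Clec4e, which had the widest spread with vehicle, had larger fold changes that did not pass. Clec4e held 75.3, 19.7, 35.1 and 329.9 CPM with cilengitide (log2 fold change -3.70, SE 1.29, adjusted p = 0.0699). Cd14 held 126, 50.9, 78.4 and 493 CPM (log2 fold change -3.43, SE 1.18, adjusted p = 0.0665), and Clec4d 123, 44.3, 70.8 and 370.0 CPM (log2 fold change -3.42, SE 1.11, adjusted p = 0.0573). In all 3, cilengitide replicate 4 lay above vehicle replicate 2, which was the only crossing of the groups. Myd88 held 61.2, 59.4, 66.7 and 68.5 CPM (log2 fold change -0.64, SE 0.23, adjusted p = 0.0775). The number called lower ranged from 3 to 9 as single wounds were left out, with 3 without vehicle replicate 3 or cilengitide replicate 1, 2 or 3, and 9 without vehicle replicate 2 or cilengitide replicate 4. The share of all genes called lower moved as well, at 2.12% to 2.70% where 3 were called and at 8.99% and 5.74% where 9 were. DESeq2 called 9 (8.57% of genes).

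Leukocyte genes again moved with the receptors. Ptprc ran from 95.3 to 234 CPM with cilengitide (log2 fold change -2.29, SE 0.51, adjusted p = 0.0184), and all 6 pan-leukocyte markers were called lower. Neutrophil markers summed to 3419 to 7879 CPM with cilengitide, inside the vehicle range, with 3 of 10 called lower. Singly, 0 of the 10 had a log2 fold change above 0. Their median was -2.66, against -1.12 for the monocyte and macrophage markers, of which 2 were above 0. Monocyte and macrophage markers summed to 1885 to 2074 CPM, below all vehicle wounds, with 6 of 12 called lower (6.59% of all genes), and keratinocyte markers to 34751 to 70757 CPM, above all vehicle wounds, with 3 of 7 called higher (6.48% of all genes). Their part in the receptor values was not tested.

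Cilengitide-treated Col5a1CKO wounds still held more receptor RNA than WT vehicle wounds. Of 10 genes 8 were called higher (5.15% of 15514 genes) and 9 did not overlap (14.4% of genes), with a median log2 fold change of 2.11. Those called ran from 1.75 for Tlr4 (adjusted p = 0.0224) and 1.89 for Clec4n (adjusted p = 0.0364) to 3.54 for Cd14 (adjusted p = 0.0333) and 3.78 for Clec4e (adjusted p = 0.0369). Tlr2 was at 2.24 (SE 0.43, adjusted p = 0.0205), Clec7a at 2.32 (adjusted p = 0.025), Tlr13 at 1.97 (adjusted p = 0.0409) and Clec4d at 3.29 (adjusted p = 0.0269). Tlr1 missed the threshold at 1.71 (adjusted p = 0.0669), and Myd88 was at 0.22 (adjusted p = 0.172), the 1 gene whose groups overlapped. The number called fell as single wounds were left out. It was 5 of 10 without WT vehicle replicate 1 or cilengitide replicate 1 (4.54% and 3.72% of all genes) and 3 without WT vehicle replicate 4 (1.82%). It was 0 of 10 without WT vehicle replicate 3 or cilengitide replicate 2, 3 or 4, where also 0.551%, 0.0191%, 0.00638% and 0.00635% of all genes were called higher. In each fit with 0 called, 9 of 10 kept an unadjusted p under 0.05 (19.9% of genes over all wounds), and the median log2 fold changes were 1.78 to 2.28. Ptprc was higher too (log2 fold change 1.61, SE 0.31, adjusted p = 0.0205), at 95.3 to 234 CPM with cilengitide against 34.8 to 54.1 CPM, as was Itgam (log2 fold change 2.01, adjusted p = 0.0195). All 6 pan-leukocyte, 5 of 12 monocyte and macrophage and 3 of 10 neutrophil markers were called higher and 3 of 7 keratinocyte markers lower (3.43% of all genes were called lower), and their part in the receptor values was not tested.

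Each level was also divided by that of Ptprc in the same library, as an amount per unit of this leukocyte RNA. At day 14 the 10 genes then had a median log2 difference of -0.20, where all genes had -1.97. Clec4e was higher in Col5a1CKO wounds, at 2.13 (SE 0.77, adjusted p = 0.0203) by limma, the 1 gene of 10 called higher (0.285% of genes), and Myd88 was called lower at -1.77 (SE 0.58, adjusted p = 0.0124) (72.3% of genes). Tlr2 was at 0.32 (SE 0.45, adjusted p = 0.509). Within the lower set Clec4e had 1.32 (adjusted p = 0.0883) and 0 genes were called higher (0.249% of genes). Clec7a was called lower in that set at -1.42 (adjusted p = 0.0265), where 41.3% of genes were, and Myd88 was not, at -1.17 (adjusted p = 0.0884). Within the upper set Myd88 was called lower at -2.08 (80% of genes), and Clec4e, Cd14 and Clec4d were called higher (0.594% of genes) at 3.16, 2.27 and 1.75.

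In the vehicle groups Clec4e (2.97, SE 0.61, adjusted p = 1.16e-04), Cd14 (2.60, SE 0.61, adjusted p = 4.97e-04) and Clec4d (2.25, SE 0.54, adjusted p = 5.90e-04) were higher per Ptprc in Col5a1CKO wounds, 3 of 10 where 0.428% of all genes were. Clec4e lay at 0.0834 to 0.334 times the Ptprc level in WT and 0.411 to 3.07 times in Col5a1CKO wounds, without overlap, as did Clec4d (0.177 to 0.49 and 0.651 to 3.47) and Clec7a (0.19 to 0.492 and 0.515 to 0.755), and 0.531% of genes did not overlap in this direction. Cd14 ratios of 0.141 to 0.581 and 0.512 to 4.04 crossed at Col5a1CKO replicate 2. Clec7a passed at under 2-fold, 0.94 (SE 0.43, adjusted p = 0.0461), and Tlr2 was at 0.72 (SE 0.44, adjusted p = 0.116). Myd88 was called lower at -2.90 (SE 0.42, adjusted p = 2.96e-06), as were 95.6% of all genes, and its ratios were 1.07 to 1.51 in WT against 0.122 to 0.238 in Col5a1CKO wounds. Over the 10 genes the median was 0.74, against -3.67 over all genes.

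With cilengitide against vehicle the ratios had a median of -0.15 where all genes had 2.15. Clec4e was called lower per Ptprc at -1.38 (SE 0.63, adjusted p = 0.0396), 1 of 10 where 0.09% of genes were, and its ratios of 0.19 to 1.41 overlapped with those of vehicle. That call was lost without vehicle replicate 3 or 4 or cilengitide replicate 2 or 3. Myd88 was called higher at 1.60 (SE 0.52, adjusted p = 0.0062), as were 90.6% of genes. Tlr2 was at -0.14 (SE 0.51, adjusted p = 0.79), Clec7a at -0.16 (SE 0.50, adjusted p = 0.755), Cd14 at -0.88 (SE 0.61, adjusted p = 0.167) and Clec4d at -0.83 (SE 0.58, adjusted p = 0.172). The reference mattered: per summed neutrophil markers 0 of 10 were called in the vehicle groups (0.0454% of genes higher) or with cilengitide (0.00643% of genes lower). Per summed monocyte and macrophage markers 9 were called higher in Col5a1CKO vehicle wounds (1.95% of genes) and 3 lower with cilengitide (0.328% of genes).

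**Figure D4:**
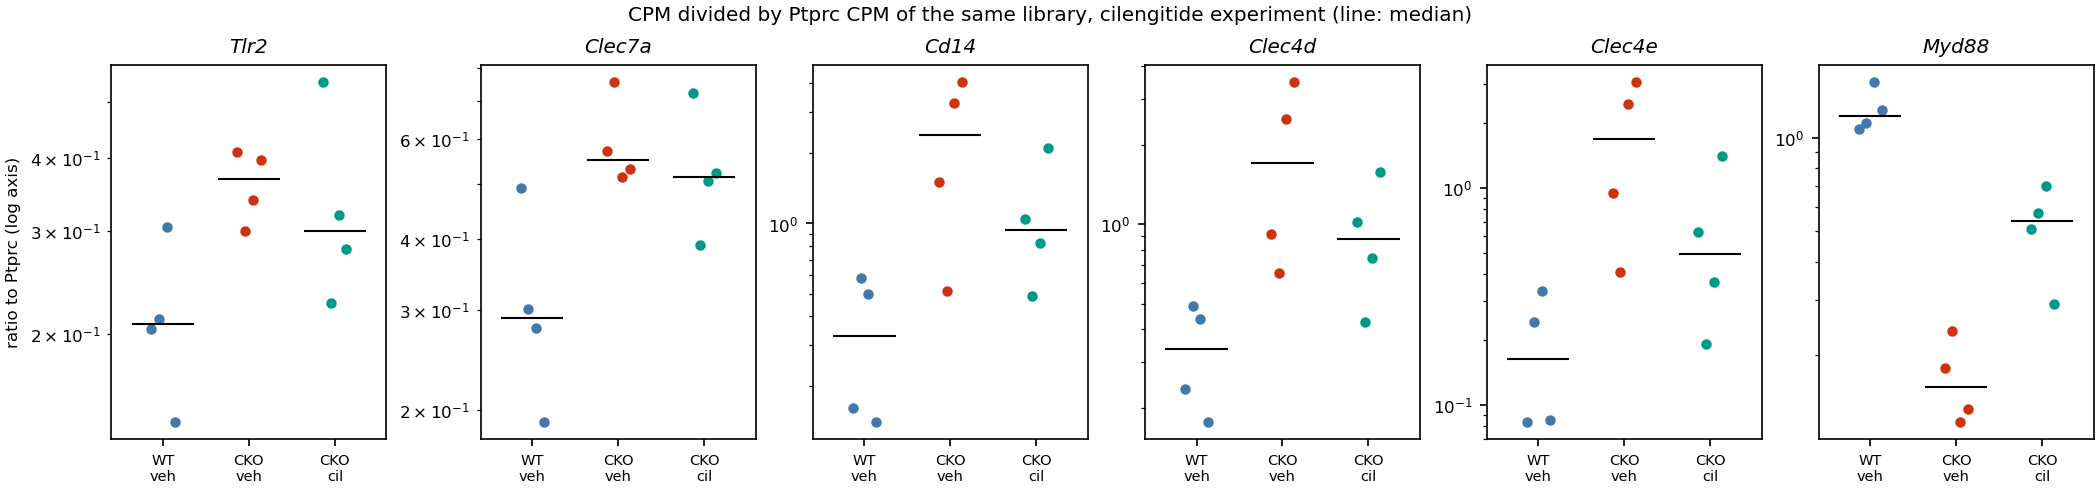
CPM of 6 receptor genes divided by Ptprc CPM of the same library (log axis) in WT vehicle, Col5a1CKO vehicle and Col5a1CKO cilengitide wounds, with a line at the median. The Clec4d, Clec4e and Clec7a ratios of the Col5a1CKO vehicle wounds all lie above those of the WT wounds, and the Myd88 ratios run the other way, from 1.07 to 1.51 in WT to 0.122 to 0.238.

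Other genes of both pathways were followed by lists drawn up from their known roles, with earlier results of these data known. Of all genes tested, 5.57% were called higher at day 14, 17.5% higher between the vehicle groups, and 6.59% lower with cilengitide. Of 16 further toll-like receptor and co-receptor genes, 3 of 14 tested were called higher at day 14: Tlr8, an endosomal RNA sensor (log2 fold change 1.75, adjusted p = 0.0165), Unc93b1, the chaperone of endosomal receptors (log2 fold change 1.26, adjusted p = 0.0109), and Lbp, which carries lipopolysaccharide (log2 fold change 2.79, adjusted p = 0.0468). The list's median was 0.67. With vehicle alone, 7 of 15 were called higher, with Cd36, a scavenger receptor that acts with TLR2, at 33.1 to 75.4 CPM in WT against 238 to 495 CPM in Col5a1CKO wounds (log2 fold change 3.03, adjusted p = 9.05e-04). Cilengitide wounds had 4 of 16 called lower, among them Tlr8 (log2 fold change -1.31, adjusted p = 0.00609) and Cd36 (log2 fold change -2.02, adjusted p = 0.00545). Cnpy3, another chaperone of these receptors, rose by under 2-fold in the vehicle groups (log2 fold change 0.86, adjusted p = 0.00212).

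Of 18 adaptors and kinases 0 were called higher and 1 lower at day 14 (2.71% of all genes were called lower), namely Traf6, the ubiquitin ligase below MyD88 (log2 fold change -1.35, adjusted p = 0.0102), which held 115 to 149 CPM in WT against 26.6 to 96.5 CPM in Col5a1CKO wounds. Tirap, which bridges TLR2 and TLR4 to MyD88, did not pass at day 14 (log2 fold change 1.09, adjusted p = 0.0718). In the vehicle groups 5 of the 18 were called higher, where 17.5% of all genes were, and Tirap was 1 of them (log2 fold change 2.22, adjusted p = 0.00182). With cilengitide Tirap (log2 fold change -1.02, adjusted p = 0.038) and the transcription factor gene Irf5 (log2 fold change -1.28, adjusted p = 0.0208) were the 2 of 18 called lower, where 6.59% of all genes were. Chuk, a kinase of NF-kB activation, passed at under 2-fold in the vehicle groups (log2 fold change 0.80, adjusted p = 0.00916). The list medians were 0.26 at day 14, 0.31 with vehicle and -0.33 with cilengitide, and Myd88 at 0.32, 0.82 and -0.64 lay further from 0 than each.

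Among the genes that restrain these receptors, 3 of 5 tested were called higher at day 14, Tnfaip3, the deubiquitinase A20 (log2 fold change 3.36, adjusted p = 0.00579), Irak3, the inactive kinase of monocytes (log2 fold change 1.70, adjusted p = 0.0201), and Nfkbia, the inhibitor of NF-kB (log2 fold change 1.45, adjusted p = 0.0403). Tollip, which dampens IL-1 and toll-like receptor signals, did not pass (log2 fold change -0.70, adjusted p = 0.222). In the vehicle groups 3 of 6 were called higher, with Tnfaip3 at 14.3 to 21.5 CPM in WT against 55.9 to 385 CPM in Col5a1CKO wounds (log2 fold change 3.67, adjusted p = 0.00297) and Irak3 (log2 fold change 2.64, adjusted p = 0.0108). With cilengitide 3 of 6 were called lower, including Tnfaip3 (log2 fold change -2.73, adjusted p = 0.0284) and Irak3 (log2 fold change -2.45, adjusted p = 0.0309). None was called at day 19, where 6 were tested. Over all genes 5.57% were called higher at day 14, 17.5% higher in the vehicle groups and 6.59% lower with cilengitide.

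Among 20 other C-type lectin receptor genes, 3 of 15 tested were called higher at day 14, Ly75, which encodes DEC-205 of dendritic cells (log2 fold change 2.05, adjusted p = 0.0111), Clec5a, a DAP12-coupled receptor of myeloid cells (log2 fold change 2.51, adjusted p = 0.0276), and Clec4a1 (log2 fold change 1.20, adjusted p = 0.0301). Of all genes 5.57% were called higher at day 14. Between vehicle groups 10 of 18 were called higher and 1 lower (17.5% of all genes were called higher and 13.4% lower). The lower gene was Cd207, which encodes Langerin of Langerhans cells, at 15.6 to 29.3 CPM in WT against 0.172 to 0.41 CPM in Col5a1CKO wounds (log2 fold change -6.31, adjusted p = 2.87e-04), and Ly75 was among the higher (log2 fold change 2.29, adjusted p = 0.0014). With cilengitide 7 of 18 were called lower (6.59% of all genes were), including Clec4a1 (log2 fold change -1.23, adjusted p = 0.0142), and Cd207 was the 1 called higher (6.48% of all genes were), at 5.60 to 10.2 CPM (log2 fold change 4.67, adjusted p = 0.00139). Between the vehicle groups and with cilengitide, Cd207 was thus called in the direction opposite to the other lectin receptors called. Keratinocyte markers were called in its direction in both. These comparisons share the Col5a1CKO vehicle wounds, so their directions are not independent. At day 14 neither Cd207 nor any keratinocyte marker was called.

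Of the 10 signalling genes below the lectins, 4 were called higher at day 14, Syk, the kinase itself (log2 fold change 2.18, adjusted p = 0.00509), Vav1, an exchange factor (log2 fold change 1.85, adjusted p = 0.0102), Malt1, a paracaspase that works with CARD9 and BCL10 (log2 fold change 1.81, adjusted p = 0.0109), and Fcer1g, the Fc receptor gamma chain on which Mincle and Dectin-2 depend (log2 fold change 1.36, adjusted p = 0.0483). In the vehicle groups 8 of 10 were called higher, with Syk at 18.4 to 32.1 and 124 to 712 CPM (log2 fold change 4.06, adjusted p = 0.00183) and Tyrobp, which encodes DAP12 (log2 fold change 3.93, adjusted p = 0.00233). With cilengitide 6 of 10 were called lower, including Fcer1g (log2 fold change -2.38, adjusted p = 0.0185) and Vav1 (log2 fold change -1.87, adjusted p = 0.0197). The list's median log2 fold changes were 1.29, 1.78 and -1.38. Of all genes 5.57% and 17.5% were called higher in the first 2 comparisons, and 6.59% lower with cilengitide.

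Within the library sets at day 14, counts called higher in the lower and the upper set were 0 of 14 and 4 of 15 further toll-like receptors and co-receptors, 0 of 18 and 1 of 18 adaptors and kinases, and 2 of 5 and 1 of 6 restraining genes. They were 1 of 17 and 6 of 18 for the other lectin receptors and 2 of 10 and 4 of 10 for lectin signalling, where 3.68% and 8.82% of all genes were called higher. In the fibroblast-injected wounds against WT wounds, where 3.77% of all genes were called higher, those called higher were 1 of 15 further toll-like receptors and co-receptors, 2 of 18 adaptors and kinases with 1 lower (2.06% of all genes were called lower), 2 of 6 restraining genes, 0 of 18 other lectin receptors and 5 of 10 lectin signalling genes. Cilengitide wounds against WT vehicle, where 5.15% of all genes were called higher, had 2 of 16, 1 of 18, 0 of 6, 6 of 19 with 1 lower (3.43% of all genes were called lower), and 3 of 10 in the same order. At day 19, and between Col5a1CKO wounds with and without fibroblasts, 0 genes of any of the 5 lists were called.

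The genes outside the 10 whose levels followed the mean Z score of the 10 most closely included genes of phagocytes. Over the 23 libraries of the first table and 12070 genes they included Plek (r = 0.96), the Fc receptor gene Fcgr3 (0.96), Clec5a (0.96) and Trim30a (0.96). Over the 12 libraries of the cilengitide table and 11637 genes they were Clec5a (0.997), the scavenger receptor gene Msr1 (0.997), the complement receptor gene C5ar1 (0.997), Slc15a3 (0.996) and Hcls1 (0.996). Myd88 followed the mean least of the 10, at 0.36 and 0.93, where the others lay at 0.88 to 0.94 in the first table, and in the cilengitide table at 0.97 to 0.99. These correlations of log2(CPM + 1) are descriptions over libraries that share group and leukocyte content, and the mean includes each receptor itself.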

How the data were processed

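RNA-seq of 35 mouse skin wound libraries was analysed. The authors deposited raw counts in 2 tables, 1 of RefSeq transcripts and 1 of gene symbols for the cilengitide experiment, made per their methods with Hisat2 on NCBI37 (mm9), 50 bp single-end reads and SeqMonk counts over exons. Versions and the processing of the cilengitide libraries are not given in the sources used here, and 0 columns of values were unmapped. The transcript row with the largest total was kept per symbol (22830 in each table). The tables were tested separately.

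Groups were compared with edgeR 4.0.16 (TMM, filterByExpr minimum count 10, robust quasi-likelihood fit) in R 4.3.3, only the compared groups in a fit, Benjamini-Hochberg over all genes tested, called at adjusted p under 0.05 and at least 2-fold. Genotype by day was an interaction term. Ratios to Ptprc were tested with limma 3.58.1 on log2(CPM + 0.5). The scripts were tested on simulated data. Totals were 15043531 to 68266760 counts, and the precision of a level is set by the spread between wounds rather than by depth. Library sets were divided where the largest gap lay in the count difference between the GC-rich and GC-poor 10% of genes with at least 5 CPM. Alternatives were DESeq2 1.42.0, other size factors, no filter beyond 1 count, 3-fold, summed transcript rows, the replicate letter as a block, library sets, other reference genes and leaving out each wound. The fits of replicates a to c, the interaction and the ratios without single wounds, and the ratios within library sets were chosen after seeing the data.

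Receptor genes and gene lists were chosen with earlier results of these data known. Named are the 10 receptor genes, Col5a1, Ptprc, Itgam, from each list up to 4 genes with the smallest adjusted p at day 14 and up to 2 in each vehicle comparison (of the Col5a1CKO vehicle wounds with WT and with cilengitide wounds), and the 5 nearest genes of each table, of which 1 in the first table is not reported here. Reads shared between the neighbouring Clec4 genes and other members of that family cannot be resolved here. Promoters (250 bases) are from RefSeq, GRCm38.p6, in which 7 of the 10 genes were used, and other sequences were not analysed here. Replicates were compared by chi-square, with a lowest value of 29.9 per degree of freedom, so none were the same library. Python 3.11.15, numpy 2.4.6, pandas 2.3.3 and matplotlib 3.10.9 made the tables and figures.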

Additional observations from a re-analysis of the deposited data

Results flagged for a closer look

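Values of 50 groups of 4 to 7 wounds were examined for a single wound far from the others, and 3 stood apart, where chance at 1 in 20 gives 2.5. Clec7a in Col5a1CKO day 14 replicate a was at 587 CPM, with the next wound at 289 CPM, a gap of 0.58 of the group's range. Tlr2 in WT vehicle replicate 4 was at 4.93 CPM, with the next at 11.0 CPM, a gap of 0.862 of the range. Cd14 in cilengitide replicate 4 was at 493 CPM, with the next at 126 CPM, a gap of 0.83 of the range. Ptprc in the same 3 wounds was at 768, 34.8 and 234 CPM, the highest of the 7, the lowest of the 4 and the highest of the 4 wounds of each group.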

How the results depend on the processing

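At day 14 the number of receptor genes called higher was 2, 4 with DESeq2, 6 with the library set as a covariate, 0 within the lower and 7 within the upper set, and 1 to 2 when single wounds were left out. For injected against WT wounds it was 1, 2 with DESeq2, 2 by library size only, 9 with the set as a covariate and 9 within the upper set, and 0 to 1 without single wounds. Both fits with 9 called rest on the same WT wounds. With vehicle 9 were called whichever wound was left out. With cilengitide against vehicle 3 to 9 were called lower, and against WT vehicle 0 to 7 higher, without single wounds. The lowest count of a receptor gene in any library was 54, so the spread between wounds limits these values more than depth. The fits within sets held fewer wounds, and the cause of the changes between settings was not tested.

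The replicate letters are not stated to be pairs, and same-letter wounds had a mean correlation of 0.18 at day 14 (lowest -0.45), -0.38 at day 19, 0.10 for fibroblast-injected against other Col5a1CKO wounds and 0.21 for injected against WT wounds. With the letter as a block 6 genes were called at day 14, 2 were called lower in injected against other Col5a1CKO wounds (7.42% of genes lower and 9.33% higher), and over replicates a to c without the block 3 were (9.31% lower and 11.2% higher), where the Col5a1CKO wounds are all of the lower and the injected ones all of the upper library set. For injected against WT wounds these replicates gave 2 without the block. Signs changed with the block for Tlr1 at day 19 (0.20) and for Tlr4 and Clec4n in injected against WT wounds (-0.32 and -0.32), and without it, over replicates a to c, for Tlr4 -0.39, Clec4d -0.046 and Clec4n -0.33 there and Tlr2 -0.011 against other Col5a1CKO wounds.

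Other log2 values that changed sign, none of them called before or after except where said, were at day 19 by library size only Tlr13 -0.21, Myd88 -0.024 and Clec4n -0.073, and without single wounds the ranges Tlr1 -0.73 to 0.66, Tlr13 -0.40 to 0.65, Clec4d -0.52 to 0.47, Clec4e -0.81 to 0.42 and Clec4n -0.30 to 1.05. For injected against other Col5a1CKO wounds they were, with the set as a covariate, Tlr1 0.15, Tlr2 -0.10, Tlr4 0.11, Tlr13 0.39, Clec4d 0.32 and Clec4e 0.31, within the upper set Tlr1 0.21, Tlr2 -0.053, Tlr4 0.16, Tlr13 0.44, Clec4d 0.37, Clec4e 0.35 and Clec7a 0.040, and without single wounds Tlr1 -0.35 to 0.044 and Clec7a -0.29 to 0.40. For genotype by day Myd88 was -0.019 with DESeq2, -0.51 by library size, -0.0088 without the filter and -0.11 in the upper set, and the ranges without single wounds were Myd88 -0.14 to 0.22 and Tlr4 -0.67 to 0.18.

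Per reference gene at day 14, per Itgam 2 genes were called lower, where 85.3% of all genes were, and Tlr2 was -0.094. Per neutrophil markers 0 were called lower (8.75% of all genes), with Tlr1 0.75, Tlr4 0.53, Tlr13 0.70, Clec7a 0.29 and Clec4n 0.67. Per monocyte and macrophage markers 2 were called higher (1.62% of all genes) and 0 lower (12.1%), with Tlr1 1.19, Tlr4 0.98, Tlr13 1.15, Clec7a 0.74 and Clec4n 1.12. Per Ptprc within the lower set 0 were called higher, with Tlr2 -0.055 and Clec4d -0.69, and within the upper set 3 were, with Tlr1 0.070, Tlr13 0.13, Clec7a 0.65 and Clec4n 0.65. In the vehicle groups Clec4n per Itgam was -0.27, and per neutrophil markers 0 were called in either direction (0.0454% of all genes higher and 58.1% lower). Per monocyte and macrophage markers 9 were called higher (1.95% of all genes), where Tlr1 (1.32) and Tlr4 (1.38) turned to a higher value and were called. Per Ptprc 3 to 4 were called higher without single wounds, with Tlr1 -0.40 to 0.035 and Tlr4 -0.28 to 0.0051. With cilengitide 0 were called lower per Itgam (0.0257% of all genes), with Tlr2 0.18, Tlr13 0.034 and Clec7a 0.15. There 0 were called in either direction per neutrophil markers (3.94% of all genes higher and 0.00643% lower), with Tlr1 -0.79, Tlr4 -0.91 and Clec4n -1.18. For monocyte and macrophage markers 3 were called lower (0.328% of all genes) and 0 higher (55.2%), with Tlr1 -0.63, Tlr4 -0.74 and Clec4n -1.02, Clec4n being called. Per Ptprc 0 to 3 were called lower with cilengitide without single wounds, with Tlr2 -0.38 to 0.029 and Clec4n -0.042 to 0.13. Taking each direction of a comparison in each setting as 1 count, 247 other counts of genes called stayed equal or within 1.5 times. These include counts of 0 that stayed 0.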
